A study of Mus musculus with 40 samples.

Results

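Shelterin is the protein complex that coats the telomeres of mammalian chromosomes, and the data described here are the mouse genes that encode it, *Pot1b*, *Pot1a*, *Terf1*, *Terf2*, *Terf2ip*, *Tinf2* and *Acd*, measured by RNA sequencing of cortex. The 7 genes were taken by name from the 43346 genes of the count table, and all 7 were among the 21253 genes tested. *Pot1b* was chosen by its lower counts in homozygous than in wild-type mice of both cohorts of these samples, and the other 6 because their proteins belong to the same complex. The Hom to WT values of *Pot1b*, how they differ between the sexes, and its differences between the cohorts are therefore a description, with no test.

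As background, TRF1 and TRF2, encoded by *Terf1* and *Terf2*, bind the double-stranded telomere repeat, while the POT1 proteins bind the single-stranded overhang at its end, and TIN2 and TPP1, encoded by *Tinf2* and *Acd*, join the duplex binders to POT1. The complex hides the chromosome end from the DNA damage response and controls the access of telomerase. Mice and other rodents of their family carry a pair of POT1 genes where humans have 1: POT1a represses damage signalling by the ATR kinase at telomeres, and POT1b limits the trimming of the strand that leaves the overhang. Neurons do not divide, and most cells of the adult cortex divide rarely or not at all.

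The study placed the Alzheimer-associated H157Y substitution into mouse *Trem2*, a receptor of microglia, by CRISPR/Cas9 editing of zygotes from B6/CBA mice, and sequenced poly-A RNA from the cortex of 40 mice. The non-amyloid cohort held 10 wild-type (WT) mice and 10 mice homozygous for H157Y (Hom), all 6 months old and without amyloid transgenes. The amyloid cohort held 10 WT and 10 Hom mice for the same *Trem2* alleles, all 8.5 months old and hemizygous for the 5xFAD transgenes, which cause amyloid deposits and are driven in neurons by the Thy1 promoter. Each group had 5 females and 5 males, no mouse was treated, and the mice came from crosses of H157Y heterozygotes. The study names offspring of 1 founder for results where no other is stated, so the edited codon and any other sequence that the edited chromosome 17 carries cannot be told apart between WT and Hom mice. Age and the transgenes also differ together between the cohorts and cannot be told apart.

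Total counts per library ran from 63206723 to 96535733 in non-amyloid WT mice and from 62292528 to 101025084 in non-amyloid Hom mice. They ran from 62272158 to 105903846 in amyloid WT mice and from 41646271 to 95364171 in amyloid Hom mice. Levels are given as normalised read counts (CPM, with library sizes scaled by TMM), and as CPM per kilobase of the gene length in the count table where genes are compared with each other. Neuronal markers summed to 7566 CPM on average in non-amyloid WT mice and 7307 CPM in amyloid WT mice, with *Snap25*, a protein of synaptic vesicle fusion, the most abundant, and none of the 7 was at 0. The pyramidal-neuron gene *Slc17a7*, a glutamate transporter of synaptic vesicles, averaged 793 CPM in non-amyloid WT mice, so markers of cortical neurons were present.

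One library stands apart. Genes named as lying opposite another gene took 0.239% of the counts of amyloid Hom replicate 19, a female, and 0.0933% to 0.107% in the other 39 libraries. It also held the fewest counts of the 40, 41646271, with the next library of its group at 66558169. In that library *Terf1* at 15.7 CPM and *Terf2ip* at 65.9 CPM were the highest of their group, and *Tinf2* at 8.24 CPM and *Acd* at 11.7 CPM the lowest. *Pot1b* was at 6.43 CPM there, inside the range of its group. Fold changes of single shelterin genes that include this mouse are given below with and without it, and so are correlations between these genes. Those with a covariate, or from another tool, scaling or filter, are given with it only.

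Per kilobase, *Terf2ip*, whose product RAP1 sits on TRF2, had the highest level of the 7 genes, with a mean of 16 CPM per kilobase over the 40 libraries (SD 0.936). *Acd* followed at 13.6 (SD 2.17) and *Terf2* at 8.21 (SD 0.323), then *Tinf2* at 5.96 (SD 0.578). The POT1 genes and *Terf1* were the lowest: *Pot1a* averaged 3.10 CPM per kilobase (SD 0.437), *Terf1* 2.38 (SD 0.331) and *Pot1b* 2.12 (SD 0.634). *Terf2* lay above *Tinf2*, and *Tinf2* above *Pot1a*, in 40 of 40 libraries, while *Terf2ip* lay above *Acd* in 32 of 40. By the lengths in the count table the last pair in the order changed places with genotype. *Terf1* lay above *Pot1b* in 4 of 20 WT libraries and in 20 of 20 Hom libraries, which restates the difference by which *Pot1b* was chosen. Without division by length, 2 of the 7 genes kept their rank. The order depends on the lengths used. Divided by the exonic bases of the GENCODE vM21 annotation, a choice made after seeing the data, 2 of the 7 kept their rank: *Terf2ip* averaged 11.6 CPM per kilobase, *Terf2* 8.21, *Acd* 5.36, *Pot1a* 3.10, *Terf1* 2.38, *Tinf2* 2.10 and *Pot1b* 1.41. By these lengths *Terf2* still lay above *Tinf2* in 40 of 40 libraries, *Tinf2* lay above *Pot1a* in 1 of 40, and *Terf1* lay above *Pot1b* in 40 of 40.

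The single-strand binder *Pot1b* was measured in non-amyloid WT mice at a lowest, median and highest level of 6.25, 8.57 and 11.1 CPM, from 500 to 933 counts a library. In non-amyloid Hom mice the same values were 4.48, 5.55 and 6.94 CPM. The groups overlapped narrowly: 2 Hom mice lay above the lowest WT mouse, which was replicate 1, a female, and no other WT mouse lay below the highest Hom mouse. In amyloid WT mice *Pot1b* was at 8.02, 9.10 and 14 CPM, and in amyloid Hom mice at 4.81, 5.63 and 6.64 CPM, from 274 to 557 counts. Each amyloid Hom mouse lay below each amyloid WT mouse, as in 0.00941% of the genes tested. The mean of Hom mice was 62.2% of the WT mean in the non-amyloid cohort and 59.2% in the amyloid cohort. As log2 fold changes these were −0.68 (SE 0.098) and −0.76 (SE 0.096), or −0.77 in the amyloid cohort without replicate 19. *Pot1b* was among the 4 genes called in the same direction in both cohorts, 0.0188% of those tested, which is how it was selected. Others of these 4 genes lie on chromosome 17, as *Pot1b* does, and on chromosome X. Between the cohorts the difference of *Pot1b* itself differed by −0.07 on the log2 scale and by −0.093 without replicate 19. It differed by 0.0044 without amyloid WT replicate 8, the mouse at 14 CPM, and by −0.21 with the GC slope of each library, described below, as a covariate, both choices made after seeing the data. These too are a description. In bulk cortex, fewer cells of a type that transcribes a gene and less of its RNA per cell cannot be told apart.

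**Figure D1:**
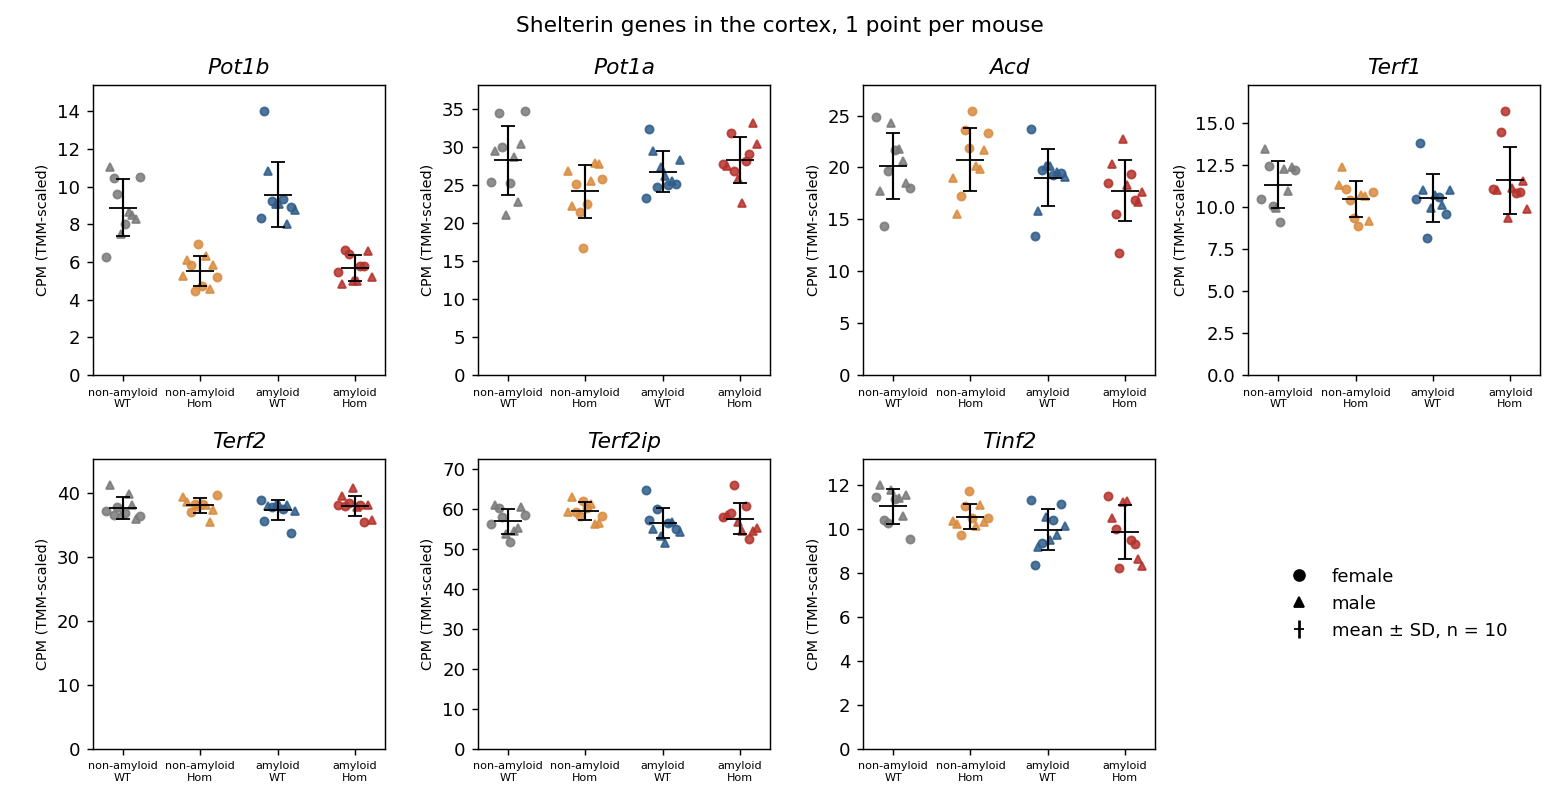
Levels of the 7 shelterin genes in CPM in each of the 40 libraries, by group, females as circles and males as triangles, with the mean and SD of each group of 10 mice. *Pot1b* was chosen by its Hom to WT difference, and its amyloid Hom mice lie between 4.81 and 6.64 CPM, below the lowest amyloid WT mouse at 8.02 CPM.

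Both sexes gave similar shares. Non-amyloid Hom females had 60.6% of the *Pot1b* level of WT females and Hom males 63.8% of that of WT males, and in the amyloid cohort the shares were 60.3% and 58.0%. Sex was not used to choose the gene, so it was tested: *Pot1b* differed between females and males by 0.070 on the log2 scale (95% confidence interval −0.071 to 0.21; adjusted p = 0.882 by the quasi-likelihood test of edgeR, adjusted by Benjamini and Hochberg's method), and by 0.061 without replicate 19. The Hom to WT difference of *Pot1b*, by which the gene was chosen, differed between the sexes by −0.011 (interval −0.30 to 0.27), or −0.029 without replicate 19. That value is a description, with no test.

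*Pot1a*, the paralogue that represses ATR signalling, was not chosen by its values. Its lowest, median and highest levels were 21.1, 29.1 and 34.7 CPM in non-amyloid WT mice and 16.7, 25.3 and 27.9 CPM in non-amyloid Hom mice. In amyloid WT mice they were 23.3, 25.9 and 32.4 CPM, and in amyloid Hom mice 22.6, 28 and 33.2 CPM. The groups overlapped in both cohorts. The Hom to WT difference of *Pot1a* was −0.22 on the log2 scale in the non-amyloid cohort (SE 0.093, unadjusted p = 0.0278, adjusted p = 0.965 by edgeR's quasi-likelihood test) and 0.083 in the amyloid cohort (SE 0.067, adjusted p = 0.678), or 0.096 without replicate 19. The interaction of *Pot1a*, 0.31 (SE 0.12, interval 0.066 to 0.55), had an unadjusted p of 0.0138 and an adjusted p of 0.381 in the same edgeR test, and was 0.32 without replicate 19. In no cohort, then, did *Pot1a* pass the test. The ratio of *Pot1b* to *Pot1a*, both per kilobase, averaged 0.783 in non-amyloid WT mice and 0.584 in Hom mice, and 0.882 and 0.497 in the amyloid cohort; by the vM21 lengths these ratios were 0.520, 0.388, 0.586 and 0.330. *Pot1b* made up 4.82% of the summed level of the 7 genes per kilobase in non-amyloid WT mice, 3.04% in non-amyloid Hom mice, 5.40% in amyloid WT mice and 3.27% in amyloid Hom mice, or 4.83%, 3.07%, 5.36% and 3.20% by the vM21 lengths. Since *Pot1b* was chosen for its difference, these shares are a description.

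Of the duplex binders, *Terf1*, whose product helps replication forks pass the telomere, ranged from 8.12 to 15.7 CPM over the 4 groups, with medians of 11.6 and 10.7 CPM in non-amyloid WT and Hom mice and 10.5 and 11 CPM in amyloid WT and Hom mice. *Terf2*, whose product folds the chromosome end into a loop and represses ATM signalling and end joining, was the steadiest of the 7, from 33.7 to 41.2 CPM in all 40 libraries. Its spread within groups was 0.058 on the log2 scale, against a median of 0.19 for the 15198 genes with at least 1 CPM on average. *Terf2ip* ranged from 51.4 to 65.9 CPM, with a spread within groups of 0.082. WT and Hom mice overlapped for all 3 genes in both cohorts. For *Terf1* the Hom to WT difference was 0.13 in the amyloid cohort (interval −0.060 to 0.33), or 0.083 without replicate 19, and −0.11 in the non-amyloid cohort (interval −0.26 to 0.043). *Terf2* differed by 0.028 and 0.018 in the amyloid and non-amyloid cohorts, with intervals of −0.051 to 0.11 and −0.059 to 0.095, and by 0.031 in the amyloid cohort without replicate 19.

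The bridging subunits held to the same pattern of overlap. *Tinf2*, the hub that binds TRF1, TRF2 and TPP1, ranged from 8.24 to 12 CPM over the 40 libraries, and *Acd*, whose product TPP1 tethers POT1 and recruits telomerase, from 11.7 to 25.4 CPM. *Acd* had the widest spread within groups of the 7 genes, 0.23 on the log2 scale, next to 0.22 for *Pot1b*. The Hom to WT difference of *Acd* was −0.098 in the amyloid cohort (interval −0.30 to 0.11), or −0.041 without replicate 19, and 0.043 in the non-amyloid cohort. For *Tinf2* it was −0.016 in the amyloid cohort and 0.013 without replicate 19, so its sign rests on that library among others, and −0.060 in the non-amyloid cohort.

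Of the 6 genes other than *Pot1b*, 0 were called between Hom and WT mice in the amyloid cohort, where 0.0753% of all genes tested were called at an adjusted p under 0.05 and a log2 fold change beyond 0.25 in edgeR's quasi-likelihood test. At an unadjusted p under 0.05 the count was 0 of 6, and DESeq2 and limma-voom called 0 each. In the non-amyloid cohort 0 of 6 were called by edgeR, against 0.0329% of all genes, with 1 of 6, *Pot1a*, at an unadjusted p under 0.05 and 0 called by DESeq2 and by limma-voom. Beside a background this low, the count of 0 says little about the 6 genes. The background moves with the setting: the amyloid cohort had 16 genes called by edgeR, 303 by DESeq2 and 612 in 1 fit of all 40 libraries. The median log2 fold change of the 6 was 0.028 in the amyloid cohort and −0.021 in the non-amyloid cohort, beside medians of 0.0014 and −0.0031 over all 21253 genes. The 95% confidence intervals of the 6 genes reached from −0.30 to 0.33 in the amyloid cohort and from −0.41 to 0.25 in the non-amyloid cohort. For the interaction of genotype and cohort 0 of 6 were called by edgeR, DESeq2 and limma-voom alike, against 0% of all genes by edgeR, with *Pot1a* and *Terf1* at an unadjusted p under 0.05. The *Terf1* interaction was 0.24 (unadjusted p = 0.0493, adjusted p = 0.481 by edgeR) and 0.19 without replicate 19 (unadjusted p = 0.105, adjusted p = 0.660).

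The cohorts differ in age and in the amyloid transgenes. The groups compared here are those whose values chose *Pot1b*, so its differences between cohorts are a description, with no test. In WT mice *Pot1b* differed by 0.11 on the log2 scale (SE 0.11, interval −0.11 to 0.33), and by 0.031 without amyloid WT replicate 8, left out after seeing the data. In Hom mice the difference was 0.020 (interval −0.17 to 0.21), or 0.0022 without replicate 19. *Pot1b* is kept in the counts of the 7 genes below. Of the 7 genes, 0 were called by edgeR in WT mice, against 7.31% of all genes, with 1 of 7, *Tinf2*, at an unadjusted p under 0.05. In Hom mice 0 of 7 were called, against 5.83% of all genes, with *Pot1a* and *Acd* at an unadjusted p under 0.05. Without replicate 19 *Terf2ip* joined them, at −0.081 (unadjusted p = 0.0389 by edgeR), against −0.061 with it. Over all 21253 genes, 4259 in WT mice and 5177 in Hom mice were at an unadjusted p under 0.05 by edgeR. The counts at that threshold therefore say little about the 7 genes. DESeq2 and limma-voom also called 0 of the 7 in both WT and Hom mice. *Tinf2* was at −0.15 in WT mice (adjusted p = 0.178 by edgeR) and *Acd* at −0.24 in Hom mice (adjusted p = 0.140 by edgeR), or −0.18 without replicate 19 (adjusted p = 0.226); with limma-voom *Acd* was at −0.24 with an adjusted p of 0.0449, short of the fold change needed for a call. *Pot1a* was at 0.21 in Hom mice (adjusted p = 0.111 by edgeR) and at 0.22 without replicate 19.

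Markers of plaque-associated microglia rose between the cohorts, with 10 of 10 called by edgeR in WT mice and 10 of 10 in Hom mice. The 10 markers, *Trem2* among them, summed to 460 CPM on average in non-amyloid WT mice and 1903 CPM in amyloid WT mice, with *Ctsd*, a lysosomal protease, the most abundant, and none of the 10 was at 0. They summed to 451 CPM in non-amyloid Hom mice and 1089 CPM in amyloid Hom mice. *Trem2* itself averaged 10.7 CPM in non-amyloid WT mice and 10.4 CPM in non-amyloid Hom mice, and 62.2 and 33.9 CPM in amyloid WT and Hom mice (log2 fold change −0.87, adjusted p = 0.0763 by edgeR, not called). The same contrast of *Trem2* was called with DESeq2 (−0.86, adjusted p = 0.0148), with sex as a covariate (−0.86, adjusted p = 0.00923 by edgeR) and in a single fit of all 40 libraries (−0.87, adjusted p = 0.00199 by edgeR), and without replicate 19 it was at −0.90 (adjusted p = 0.0981). The sums of the 10 markers ran from 412 to 573 CPM in non-amyloid WT mice and from 405 to 511 CPM in non-amyloid Hom mice. The part of cell composition in the levels of the shelterin genes, *Pot1b* included, was not tested.

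Of the 7 genes, 0 were called between females and males by edgeR, against 0.358% of all genes, with 0 at an unadjusted p under 0.05 and 0 called by DESeq2 and by limma-voom. The interaction of genotype with sex also gave 0 of 7 in all 3 tools, with 0 of 7 at an unadjusted p under 0.05, against 0% of all genes by edgeR. *Pot1b* is kept in this count, where its value is a description.

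Within groups some pairs of shelterin genes rose and fell together from mouse to mouse and others were opposed. After the mean of its group was taken from each library, log2 levels of *Pot1b* and *Acd* were opposed across the 40 libraries, with Pearson's r = −0.72, Spearman's rho = −0.68 and r = −0.65 without the 2 libraries farthest from the median. In the 4 groups taken singly r ran from −0.91 to −0.41, and without replicate 19 it was −0.74. *Terf1* and *Acd* had r = −0.74 (−0.87 to −0.63 in single groups, −0.69 without replicate 19), and *Tinf2* and *Acd* had r = 0.60 (0.43 to 0.81, and 0.54). *Pot1a* and *Terf1* had r = 0.42 (0.18 to 0.73, and 0.49). For *Pot1b* and *Terf1* r was 0.52, but it ran from 0.036 to 0.73 in single groups (0.51 without replicate 19). For *Pot1b* and *Pot1a* it was 0.40 and differed in sign between groups, from −0.37 to 0.82 (0.41 without replicate 19), and for *Pot1b* and *Terf2* it was −0.0086, from −0.34 to 0.34 (−0.015 without replicate 19). Of 15197 other genes compared in the same way, those most like *Pot1b* were *Agps*, an enzyme of ether lipid synthesis (r = 0.81, rho = 0.78), *Rock1*, a kinase of the actin cytoskeleton (r = 0.81, rho = 0.76), and *Pgap1*, an enzyme that remodels GPI anchors (r = 0.81, rho = 0.79). All these points share libraries, depth and scaling, and genes are not independent replicates.

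The base composition of the transcripts went with these relations. Across 15063 genes, how closely a gene followed *Pot1b* within groups had r = −0.80 and rho = −0.82 with the GC content of its transcript, and for *Acd* the values were 0.82 and 0.83. GC content was 36.5% for *Terf1*, 42.2% for *Pot1a*, 44.8% for *Pot1b*, 47.7% for *Terf2ip*, 48.0% for *Tinf2*, 52.1% for *Terf2* and 57.0% for *Acd*. For each library a slope was taken of the level of 15056 genes, the 7 members left out, each relative to its mean, on GC content, in log2 units for 10 percentage points of GC. This slope averaged −0.0050 (SD 0.21, n = 10) in non-amyloid WT mice, 0.067 (SD 0.17) in non-amyloid Hom mice, 0.014 (SD 0.21) in amyloid WT mice and −0.076 (SD 0.14) in amyloid Hom mice, so the groups overlapped. Within groups, the level of *Acd* had r = 0.88 with the slope (rho 0.89, and r = 0.94 without replicate 19). That of *Pot1b* had r = −0.71 (rho −0.65, and r = −0.71 without replicate 19). In the 4 groups taken singly r ran from 0.69 to 0.99 for *Acd* and from −0.88 to −0.30 for *Pot1b*. For the other members r was −0.66 (*Terf1*), −0.59 (*Pot1a*), 0.47 (*Tinf2*), 0.22 (*Terf2*) and −0.14 (*Terf2ip*). In single groups it ran from −0.79 to −0.57 for *Terf1*, −0.94 to −0.14 for *Pot1a* and 0.39 to 0.64 for *Tinf2*. For *Terf2* it ran from −0.019 to 0.48 and for *Terf2ip* from −0.68 to 0.42. Non-amyloid WT replicate 1, the mouse with the lowest *Pot1b* among WT mice, had the highest slope of its group, 0.29. Non-amyloid Hom replicate 14 goes the other way. It had the highest *Pot1b* among Hom mice, 6.94 CPM, with a slope of 0.17, above the mean of its group.

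With the slope of each library as a covariate, a choice made after seeing the data, the Hom to WT difference of *Pot1b* was −0.83 (SE 0.066) in the amyloid cohort and −0.62 (SE 0.083) in the non-amyloid cohort, and the interaction −0.21, all of them a description of the contrasts by which the gene was chosen. The *Pot1a* interaction was 0.20 with the covariate (adjusted p = 0.617 by edgeR), and *Acd* between cohorts in Hom mice was at −0.063 (adjusted p = 0.697 by edgeR). *Tinf2* in WT mice between cohorts was at −0.15 with an adjusted p of 0.0447 by edgeR with the covariate, short of the fold change needed for a call. In the same comparison *Pot1b* was at 0.13 (SE 0.060), again a description. *Acd* was at −0.10 there (unadjusted p = 0.0110, adjusted p = 0.0634 by edgeR), against an unadjusted p of 0.391 without the covariate. *Terf2ip* between Hom and WT mice of the non-amyloid cohort was at 0.072 (unadjusted p = 0.0244, adjusted p = 0.490 by edgeR), against an unadjusted p of 0.0865 without it. With the covariate no member other than *Pot1b* was called in any comparison, and *Pot1b* was given no test in the contrasts that chose it. What sets the slope of a library was not tested.

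**Figure D2:**
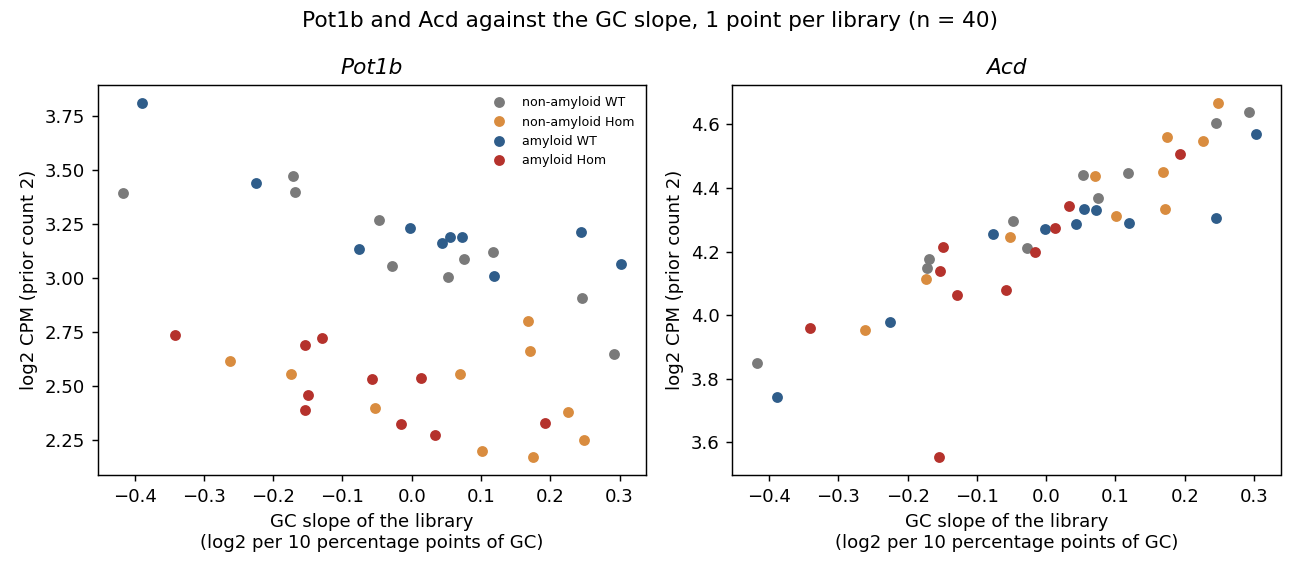
Log2 CPM of *Pot1b* and *Acd* against the GC slope of each of the 40 libraries (log2 for 10 percentage points of GC), with each point 1 mouse coloured by group. Within groups *Acd* goes up with the slope (r = 0.88, from 0.69 to 0.99 in single groups). *Pot1b* goes down (r = −0.71, from −0.88 to −0.30 in single groups).

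*Pot1b* (ENSMUSG00000024174) lies on chromosome 17 at 55652025 to 55712628 on the minus strand of mm10, and is the only 1 of the 7 genes on the chromosome of *Trem2*. The starts of *Pot1b* and *Trem2* are 7.31 Mb apart, so *Trem2* lies outside the window of 1 Mb read below. *Pot1a* (ENSMUSG00000029676) is on chromosome 6 at 25743737 to 25809246, *Terf1* on chromosome 1, *Tinf2* on chromosome 14, and *Terf2*, *Terf2ip* and *Acd* on chromosome 8. No exonic base of *Pot1b*, *Pot1a*, *Terf1* or *Terf2* is covered by an exon of another gene in the GENCODE vM21 annotation. For *Tinf2* 31.2% of exonic bases lie under exons of *Gmpr2* on the opposite strand, and for *Acd* 33.3% lie under exons of *Carmil2*. The gene lengths in the count table are below the exonic bases of that annotation for 4 of the 7 genes: 1736 against 4938 for *Tinf2*, 1425 against 3625 for *Acd*, 3499 against 5268 for *Pot1b* and 3599 against 4958 for *Terf2ip*. Whether the covered bases were counted was not tested.

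The POT1 pair can be told apart by sequence. The coding sequences of *Pot1b* and *Pot1a* are both 1920 bases long, and aligned without a gap 1511 of 1917 bases are identical, or 78.8%. Their longest identical run is 41 bases. Of the 50-base windows in *Pot1b* transcripts, 72 of 5308 (1.36%) also occur in transcripts of another gene, and for *Pot1a* the count is 16 of 8605 (0.186%).

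Other genes near *Pot1b* were read for the same contrasts. Within 1 Mb of its start lie 47 genes, *Pot1b* included, and 38 of the others were tested. Of these, 0 were called between Hom and WT mice in either cohort by edgeR, DESeq2 or limma-voom, with 4 at an unadjusted p under 0.05 in the amyloid cohort and 3 in the non-amyloid cohort by edgeR, and 0 were called with any 1 library left out, replicate 19 included. Of all 21253 genes, 0.0753% and 0.0329% were called in the amyloid and non-amyloid cohorts, with 2056 and 980 at an unadjusted p under 0.05. Among the 29 with at least 1 CPM, log2 fold changes ran from −0.56 to 0.25 in the amyloid cohort, with a median of −0.086, and from −0.19 to 0.58 in the non-amyloid cohort, with a median of 0.066. *St6gal2*, a sialyltransferase gene that starts at 55445382, had medians of 62.9 and 70.2 CPM in non-amyloid WT and Hom mice and 68.7 and 81.9 CPM in amyloid WT and Hom mice. *Ticam1*, an adaptor of Toll-like receptor signalling, was at −0.42 in the amyloid cohort (adjusted p = 0.168 by edgeR). In a single fit of all 40 libraries it was called, at −0.42 with an adjusted p of 0.0329 by edgeR. The long noncoding RNA *Gm26547*, which starts at 55557166 on the same chromosome, had 0 to 15 counts a library and was at −1.47 in the non-amyloid cohort (unadjusted p = 0.00127, adjusted p = 0.741 by edgeR). In the amyloid cohort it was at −1.05 (unadjusted p = 0.0840, adjusted p = 0.575 by edgeR). *Emr4*, which starts at 55749984, was at −0.40 and −0.53 in the amyloid and non-amyloid cohorts (unadjusted p = 0.419 and 0.386 by edgeR). Both genes lie under 1 CPM and outside the ranges given above.

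**Figure D3:**
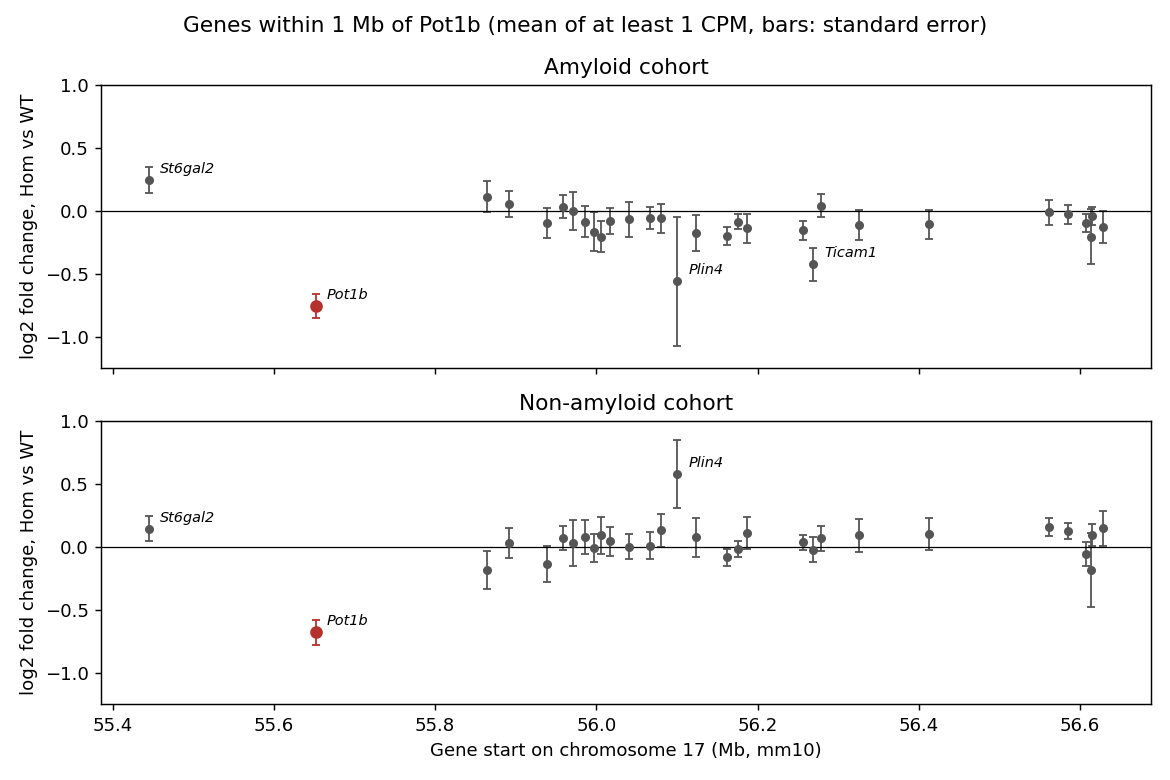
Log2 fold change of Hom against WT mice for *Pot1b* and the 29 other tested genes with at least 1 CPM within 1 Mb of its start, by gene start on chromosome 17, in each cohort, with bars for the standard error. *Pot1b*, chosen by this contrast, lies at −0.76 and −0.68, and 0 of the other 29 were called in the fits shown, of each cohort by itself.

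Promoters are shown for the POT1 pair because the genes are paralogues whose levels were set side by side. RefSeq gives a promoter of 300 bases on build GRCm38.p6 for 6 of the 7 genes, with *Terf1* not in the table. The motifs, searched on both strands and picked after the sequences were read, were CGCATGCG, the core of the NRF1 motif, TGACGTCA, the cAMP response element, and TTAGGG, the telomere repeat itself. CGCATGCG is in the *Pot1b* and *Pot1a* promoters and in 1.87% of 32851 mouse promoters, TGACGTCA in those of *Pot1a* and *Tinf2* and 1.79% of all, and TTAGGG in that of *Pot1b* and 10.6% of all. The *Pot1b* promoter also holds a run of 21 C, and 0.0670% of promoters hold a run as long. Capitals mark the motifs in the sequences, which run 5′ to 3′ on the minus strand, from chr17:55712587-55712886 for *Pot1b*, the first of its 2 entries, and chr6:25809169-25809468 for *Pot1a*. A match is a description of letters.
*Pot1b*: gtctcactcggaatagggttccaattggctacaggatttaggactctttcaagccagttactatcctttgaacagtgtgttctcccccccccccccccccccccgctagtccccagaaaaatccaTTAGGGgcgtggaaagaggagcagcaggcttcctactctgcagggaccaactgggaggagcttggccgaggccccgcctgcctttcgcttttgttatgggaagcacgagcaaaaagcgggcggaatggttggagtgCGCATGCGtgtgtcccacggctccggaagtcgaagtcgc
*Pot1a*: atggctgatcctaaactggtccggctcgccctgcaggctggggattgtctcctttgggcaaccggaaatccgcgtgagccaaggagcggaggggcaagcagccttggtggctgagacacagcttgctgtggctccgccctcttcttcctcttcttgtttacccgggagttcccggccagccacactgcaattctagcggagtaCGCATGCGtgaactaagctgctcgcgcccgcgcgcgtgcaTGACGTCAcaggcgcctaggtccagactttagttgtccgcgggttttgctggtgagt

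The other genes of telomere biology were read from lists, of which *Terc*, *Shld1*, *Terb1*, *Terb2* and *Majin* could not be tested. Between Hom and WT mice, 0 of the 3 tested genes of the CST complex, which fills in the telomeric C strand, 0 of 13 of telomerase and its particle, 0 of 18 shelterin partners and processing enzymes, 0 of 23 of the damage response at uncapped ends, 0 of 10 of telomeric chromatin and 0 of 3 meiotic telomere adaptors were called in either cohort by edgeR, DESeq2 or limma-voom. At an unadjusted p under 0.05 edgeR gave 2 genes of the damage response in the amyloid cohort and 2 meiotic adaptors in the non-amyloid cohort, and 0 in the other lists and cohorts. Over all 21253 genes edgeR called 0.0753% in the amyloid and 0.0329% in the non-amyloid cohort, with 2056 and 980 at an unadjusted p under 0.05. Beside such shares the counts of 0 called say little about these lists. *Mad2l2*, which shields broken ends from resection, was at −0.21 in the amyloid cohort (adjusted p = 0.369 by edgeR). *Spdya*, a cyclin-dependent kinase activator, was at −0.40 in the non-amyloid cohort (adjusted p = 0.945 by edgeR). *Ctc1*, the largest CST subunit, was at 0.092 in the non-amyloid cohort, and *Tert*, the catalytic subunit of telomerase, averaged 1.03 CPM in non-amyloid WT mice and 1.12 CPM in Hom mice.

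Between cohorts, 2 of the 23 damage-response genes were called in WT mice by edgeR, both higher in the amyloid cohort, and 2 of 23 in Hom mice, 1 higher and 1 lower. *Cdkn1a*, an inhibitor of the cell cycle induced by p53, averaged 14.7 CPM in non-amyloid WT mice and 23 CPM in amyloid WT mice, a log2 fold change of 0.65 (adjusted p = 0.00819 by edgeR). *Chek2*, a kinase downstream of ATM, rose from 1.27 to 1.90 CPM in WT mice (0.58, adjusted p = 0.0196 by edgeR) and from 1.13 to 1.63 CPM in Hom mice (0.51, adjusted p = 0.0481). *H2afx*, the histone variant phosphorylated at broken ends, fell from 9.60 to 8.08 CPM in Hom mice (−0.26, adjusted p = 0.0490 by edgeR). Of the meiotic adaptors, *Sun2*, a nuclear envelope protein expressed widely, fell from 63.7 to 50.2 CPM in Hom mice (−0.36, adjusted p = 0.0265 by edgeR). *H2afx* kept its call under 2 of 10 other settings and lost it without replicate 19, at −0.23 (adjusted p = 0.0893 by edgeR); *Sun2* and *Chek2* were at −0.32 and 0.53 without that mouse and stayed called. The WT call of *Chek2* was lost with limma-voom (adjusted p = 0.120). The Hom calls of *Chek2*, *H2afx* and *Sun2* were lost with the GC slope as a covariate, at 0.50, −0.13 and −0.19 with adjusted p of 0.110, 0.236 and 0.147 by edgeR, and that of *Chek2* also without a filter on low counts (adjusted p = 0.0813) and with sex as a covariate (adjusted p = 0.0556). The remaining lists of each comparison had 0 genes called by edgeR, with 1 telomerase gene, 4 shelterin partners, 1 chromatin gene and 1 meiotic adaptor at an unadjusted p under 0.05 in WT mice, and 1 CST gene, 2 partners and 3 chromatin genes in Hom mice; in the lists with calls 2 of 23 damage-response genes in WT mice, and 8 of 23 and 2 of 3 meiotic adaptors in Hom mice, were at an unadjusted p under 0.05; over all lists DESeq2 called 2 and 3 genes and limma-voom 1 and 3. These genes were called beside 7.31% and 5.83% of all genes in the WT and Hom comparisons, where 4259 and 5177 of 21253 genes were at an unadjusted p under 0.05 by edgeR. The marker sums of plaque-associated microglia given above moved with the same cohorts. Of 6 markers of proliferating cells, 1 was called in WT mice and 1 in Hom mice by edgeR, with 4 and 5 at an unadjusted p under 0.05 and median log2 fold changes of 0.43 and 0.46; their sums, mostly *Pcna*, a clamp of DNA replication, averaged 47.3 and 49.0 CPM in non-amyloid and amyloid WT mice and 42.9 and 48.5 CPM in Hom mice. Of 6 astrocyte markers, 2 were called in each, with 5 and 5 at an unadjusted p under 0.05, and their sums, with *Slc1a3*, a glutamate transporter, the most abundant, averaged 1374 and 2290 CPM in WT mice and 1307 and 1858 CPM in Hom mice. Endothelial markers had 2 of 5 called in WT mice and 0 in Hom mice, while neuronal, pyramidal-neuron and oligodendrocyte markers had 0 called in WT mice and 1 of 7 (lower), 1 of 6 (lower) and 1 of 6 (higher) in Hom mice. Choroid plexus markers had 0 called, with median log2 fold changes of 1.02 in WT and 1.03 in Hom mice. Their sums averaged 31.6 and 90.2 CPM in non-amyloid and amyloid WT mice, and 82.1 and 224 CPM in Hom mice. Erythroid markers had 0 called, with median log2 fold changes of 0.37 and 0.47. The medians of their sums were instead lower in the amyloid cohort, 9.62 and 7.78 CPM in non-amyloid and amyloid WT mice and 10.9 and 8.68 CPM in Hom mice. The part of cell composition in these calls was not tested.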

How the data were processed

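RNA of the cortex of 40 mice was sequenced as poly-A libraries, 1 library a mouse. The authors deposited raw counts per gene, with a gene length in bases (unit other). The labels name STAR 2.5.2b and featureCounts 1.5.1 on mm10 and the methods of the study TopHat; the strand setting is not stated, which bears on genes with shared exons. The study left out 1 amyloid Hom female for a low share of reads on genes and for its strand check; the labels do not name it. Replicate 19 is the amyloid Hom female with the fewest counts and the highest opposite-strand share; whether it is the one left out cannot be told from the labels. All 40 libraries were kept. A gene was kept if 4 or more libraries had 10 or more of its counts, 21253 of 43346. Counts were scaled by TMM and tested with the quasi-likelihood test of edgeR 4.0.16 in R 4.3.3, with Benjamini-Hochberg adjustment over all genes tested; calls took an adjusted p below 0.05 with a log2 fold change beyond 0.25 in either direction. Log2 CPM used a prior count of 2. Named genes were the 7 members, *Trem2*, tested genes within 1 Mb of *Pot1b*, called genes of the telomere lists (at most 3 a list and comparison) or else that with the lowest p, the most abundant marker of a list, and the genes most like *Pot1b*; *Tert*, *Gmpr2* and *Carmil2* fall outside that rule. Members and lists were chosen with earlier results of these data known. Alternatives were DESeq2 1.42.0, limma-voom with sample quality weights (limma 3.58.1), upper-quartile scaling, library size alone, no filter, filterByExpr, sex as a covariate, a fit of all 40 libraries, each library left out in the 2 Hom to WT comparisons, and levels not divided by length; the GC slope covariate, leaving out amyloid WT replicate 8 and vM21 exonic lengths were added after seeing the data. Promoters are from RefSeq, transcripts and exons from GENCODE vM21, read with Python 3.11.15. The fits were tested on simulated data.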

Additional observations from a re-analysis of the deposited data

Results flagged for a closer look

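In each group of 10 mice the gap between the farthest library and its nearest neighbour was compared with the range of the group for the 7 genes, and for some other measures of the libraries. Chance flags about 1 in 20 groups, and 36 groups were tested. Amyloid WT replicate 8 had the highest *Pot1b* of its group, 14 CPM, with the next mouse at 10.8 CPM. The same mouse had the highest *Terf1*, 13.8 CPM, with the next at 11 CPM, and the lowest GC slope of its group, −0.39. Without this mouse the difference of *Pot1b* between cohorts in WT mice was 0.031 and that of *Terf1* −0.15, and 0 of the 7 genes were called by edgeR. The part of the slope in these values was not tested. Amyloid Hom replicate 19 had 0.239% of its counts on genes named as lying opposite another gene, with the next library of its group at 0.107%.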

How the results depend on the processing

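Genes called between Hom and WT mice in the amyloid cohort numbered 16, against 303 with DESeq2, 25 with limma-voom, 612 with 1 fit of all 40 libraries, 66 with filterByExpr, 251 with sex as a covariate, 8 without a filter, 8 with the GC slope covariate, and 6 to 204 with 1 library left out. In the non-amyloid cohort there were 7, against 11 with DESeq2, 11 with the GC covariate and 4 to 8 with 1 library left out. For the interaction of genotype and cohort there were 0, against 38 with DESeq2 and 12 with sex as a covariate; between cohorts in Hom mice 1240, against 749 with the GC covariate; between sexes 76, against 164 with DESeq2, 229 with limma-voom, 163 without a filter and 168 with the GC covariate. None of these settings called a member other than *Pot1b*. Among the other genes within 1 Mb of *Pot1b*, *Ticam1* was called in the amyloid cohort with 1 fit of all 40 libraries. Levels not divided by length kept the rank of 2 of the 7 genes, as did levels divided by the exonic bases of vM21.

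Of the values of members under other settings 431 kept direction and side of the threshold and 24 reversed; with 1 library left out, in the 2 Hom to WT comparisons alone, 274 did and 6 reversed. All reversed values were small. *Pot1b* reversed between cohorts in Hom mice (−0.055 with the GC covariate, −0.0049 with limma-voom) and in the interaction of genotype and sex (0.023 with the GC covariate, 0.0058 with filterByExpr, 0.0016 by library size alone), and in that of genotype and cohort without amyloid WT replicate 8 (0.0044; it was −0.093 without amyloid Hom replicate 19). *Acd* reversed with the GC covariate in the amyloid cohort (0.0029), the non-amyloid cohort (−0.038) and the interaction (0.040), between sexes with limma-voom (0.016) and without replicate 19 (0.016), and ran from −0.0063 to 0.086 in the non-amyloid cohort with 1 library left out. *Terf1* reversed between sexes with DESeq2 (−0.0021), the GC covariate (−0.0090), filterByExpr (−0.0026), limma-voom (−0.059), no filter (−0.0054) and without replicate 19 (−0.023). *Terf2* reversed between cohorts in Hom mice with the GC covariate (0.0011), library size alone (0.0026) and upper-quartile scaling (0.012), and in the interaction of genotype and cohort with limma-voom (−0.0059). *Terf2ip* reversed in the interaction of genotype and sex with filterByExpr (0.0059) and library size alone (0.0014). *Tinf2* reversed in the amyloid cohort with the GC covariate (0.025) and ran from −0.043 to 0.013 with 1 library left out. *Trem2* between Hom and WT mice of the amyloid cohort, not called, was called with DESeq2 (−0.86), sex as a covariate (−0.86) and 1 fit of all 40 libraries (−0.87). With 1 library left out it stayed not called in 19 of 20 runs, and the lowest adjusted p was 0.0250 by edgeR. In the non-amyloid cohort *Trem2* reversed with limma-voom (0.0100) and ran from −0.084 to 0.033 with 1 library left out. The cause was not tested.

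*Pot1b* kept its direction between Hom and WT mice under every setting run, from −0.83 to −0.73 in the amyloid cohort and from −0.69 to −0.62 in the non-amyloid cohort; this direction was fixed by the choice of the gene. With 1 library left out it ran from −0.78 to −0.68 and from −0.72 to −0.64. Depth limits *Gm26547*, at 0 to 15 counts.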
